A study of Homo sapiens with 8 samples.

Results

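The subject here is the nuclear genes that encode subunits of the mitochondrial respiratory chain, in LP-1 cells, a human multiple myeloma line. Members were chosen by gene symbol alone, as all symbols of the NDUFA, NDUFB, NDUFC, NDUFS and NDUFV series, the SDH genes, the UQCR genes, COX4 to COX8 and ATP5. This gave 84 of the 18564 genes in the table: 36 for complex I, 4 for complex II, 9 for complex III, 16 for complex IV and 19 for complex V. NDUFA4 was counted with complex IV, where its protein is now placed. RNA was sequenced from wild-type (WT) cells and from a bortezomib-resistant (BR) line derived from them. Bortezomib is a proteasome inhibitor, and the BR cells had been grown with it for 2 months. Cells of each line received vehicle (DMSO) for comparison or SI-2, which inhibits the transcriptional coactivator SRC-3, at 25 nM for 24 h. Titles name DMSO where the treatment field of the WT libraries reads untreated. This gave 4 conditions of 2 libraries and 8 libraries in all. The 4 conditions shared the medium, RPMI-1640 with 10% FBS. BR is 1 resistant line from 1 parental line, so line and resistance cannot be told apart. The labels do not say whether the 2 libraries of a condition came from separate cultures, and p-values measure only the spread between these libraries, which may be technical. Nor do they say what the replicate numbers 1 and 2 mark, although the numbers matter for the results below.

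The respiratory chain of the inner mitochondrial membrane passes electrons from NADH (complex I) and succinate (complex II) through ubiquinone to complex III and, by cytochrome c, to complex IV, which reduces oxygen. Complexes I, III and IV pump protons, and complex V, the ATP synthase, uses the gradient to make ATP. All but complex II mix subunits encoded by mitochondrial DNA, which were not analysed here, with the nuclear-encoded subunits described here. Plasma cells, from which myeloma arises, make large amounts of immunoglobulin and draw on mitochondrial ATP as well as on glycolysis.

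Depth differed little between libraries, with totals of 17997771 to 18570027 estimated counts on genes. The libraries did not group by line and treatment alone. Across 13896 genes (log CPM, counts scaled to library size), each replicate 2 library was most like the other replicate 2 library of its own line, with Pearson's r of 0.993 in WT and 0.990 in BR cells. Among the replicate 1 libraries, WT vehicle and BR vehicle were nearest to each other (r = 0.989), and BR SI-2 was nearest to WT SI-2 (r = 0.987). The nearest neighbour of WT SI-2 was WT vehicle, of its own line (r = 0.988). No targeted gene checks the line labels, so whether the replicate 1 libraries belong to the lines they are labelled with was not tested, and BR-WT values within replicate 1 hold for the libraries as labelled. The plasma cell genes XBP1, IRF4, MZB1 and TNFRSF17 were high in every library, whereas SDC1 stood at 5.12 to 12.1 FPKM and SLAMF7 at no more than 0.60 FPKM. The BR SI-2 replicate 2 library alone held the fibroblast genes COL1A1 (9.84 FPKM, against 0.02 to 0.07 in the others), COL1A2 (1.56) and PDGFRB (0.51), together with EPCAM at 0.84 FPKM. Their part in the results was not tested, and the replicate 2 median over members is given with and without this library.

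Promoters of 4 members are shown because they go with the patterns described below: COX8A and COX8C, an expressed and an almost silent form of the same subunit, and NDUFA9 and SDHA, which differed between lines in the replicate 2 libraries. Each runs 5′ to 3′ on the gene's strand from 250 bases before to 50 bases after the gene start (RefSeq, GRCh38.p14), and all 4 genes lie on the plus strand. The windows are chr11:63974370-63974669 for COX8A, chr14:93346932-93347231 for COX8C, chr12:4648864-4649163 for NDUFA9 and chr5:218070-218369 for SDHA. Capitals mark matches, on either strand, to 3 motifs: GCGCA and GCGC with any 1 base between them for NRF1, a factor known for its targets among respiratory chain genes, CCGGAAG for the ETS family, to which GABP belongs, and AAGATGGCG for YY1.
COX8A: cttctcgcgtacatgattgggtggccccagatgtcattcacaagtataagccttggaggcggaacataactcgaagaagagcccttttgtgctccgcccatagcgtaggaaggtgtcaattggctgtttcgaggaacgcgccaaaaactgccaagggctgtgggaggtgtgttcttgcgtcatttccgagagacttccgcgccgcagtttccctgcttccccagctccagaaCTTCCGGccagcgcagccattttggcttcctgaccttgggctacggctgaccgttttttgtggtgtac
COX8C: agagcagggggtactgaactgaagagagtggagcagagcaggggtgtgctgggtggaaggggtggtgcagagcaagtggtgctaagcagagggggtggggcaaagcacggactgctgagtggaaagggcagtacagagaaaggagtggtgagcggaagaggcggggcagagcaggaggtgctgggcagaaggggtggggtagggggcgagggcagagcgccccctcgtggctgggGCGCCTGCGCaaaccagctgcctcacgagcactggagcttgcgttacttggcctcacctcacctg
NDUFA9: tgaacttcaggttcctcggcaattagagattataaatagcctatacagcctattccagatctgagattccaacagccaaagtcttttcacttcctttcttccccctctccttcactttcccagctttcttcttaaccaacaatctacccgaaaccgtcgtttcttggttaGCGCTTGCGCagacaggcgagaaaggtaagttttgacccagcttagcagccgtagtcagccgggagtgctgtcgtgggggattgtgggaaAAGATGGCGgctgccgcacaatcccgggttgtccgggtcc
SDHA: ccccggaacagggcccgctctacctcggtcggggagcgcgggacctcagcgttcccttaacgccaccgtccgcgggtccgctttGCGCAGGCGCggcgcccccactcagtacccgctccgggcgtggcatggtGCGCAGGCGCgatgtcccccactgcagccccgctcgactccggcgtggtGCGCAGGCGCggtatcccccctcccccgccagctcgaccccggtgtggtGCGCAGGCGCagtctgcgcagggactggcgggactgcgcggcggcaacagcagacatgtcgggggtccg
The SDHA promoter held 4 copies of the NRF1 letters, at positions -166, -117, -68 and -19 relative to the gene start, which is 0. NDUFA9 held 1 NRF1 match at -80 and 1 YY1 match at 10, just inside the transcribed part. The COX8A promoter had an ETS match at -18 and 18 CpG dinucleotides, and that of COX8C had an NRF1 match at -15 and 10 CpG. Of the 84 members, 69 had a promoter entry. The NRF1 letters were in 17 of the 69 (24.6%) against 6.28% of all 27305 promoters of the same length, the ETS letters in 20 (29.0%) against 10.7%, and the YY1 letters in 8 (11.6%) against 1.85%. At least 1 of the 3 was in 38 of the 69 (55.1%) against 17.0% of all, and no match of 1 motif overlapped a match of another in the members' promoters. The promoters of all genes were not matched to those of the members for base content or expression level. A match is a stretch of letters and says nothing of whether a factor was bound.

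Respiratory chain genes were among the more highly expressed genes of LP-1 cells. Their counts made up 0.907 to 1.07% of each library and their FPKM (fragments scaled to gene length and library size, which allows genes to be compared) 2.10 to 2.59% of the total. Of the 84, 77 had a mean of at least 20 FPKM, 36 of at least 100 FPKM, and 48 were among the 1000 highest genes. Over the 80 members that passed the count filter, the median was 87.7 FPKM, against 8.41 FPKM for all genes tested. The median was highest in complex IV (201 FPKM) and complex V (171 FPKM) and lower in complex II (82.0 FPKM), complex I (69.1 FPKM) and complex III (59.3 FPKM). The 4 members that did not pass the filter were COX6A2, COX7A1, COX8C and ATP5MGL.

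In complex V the highest levels were those of ATP5F1B, the catalytic beta subunit (565 ± 84.8 FPKM, mean ± SD over 8 libraries), ATP5MC2, a c-ring subunit (539.7 ± 33.0 FPKM), and ATP5F1A, the alpha subunit (384 ± 23.2 FPKM). The 3 highest genes of complex IV were COX7C (521 ± 57.2 FPKM), COX6C (383 ± 46.0 FPKM) and COX8A (378 ± 84.5 FPKM), all of them small structural subunits. COX4I1, a larger subunit, followed with 351 ± 15.1 FPKM. ATP5F1B and ATP5MC2 differed by less than the SD of the former, and COX6C, COX8A and COX4I1 by less than that of COX8A. Complex I was led by NDUFV2 (293 ± 69.7 FPKM), an iron-sulfur core subunit, with NDUFB9 (202 ± 46.2 FPKM) and NDUFV1, the NADH-binding subunit (162 ± 14.3 FPKM). Of the other core subunits, NDUFS7 had 90.2 FPKM, NDUFS3 70.6 FPKM, NDUFS8 61.9 FPKM and NDUFS1 46.2 FPKM. In complex III, UQCRH, the hinge protein, had 269.6 ± 13.7 FPKM and UQCRC2, a large structural core protein, 149 ± 24.0 FPKM. UQCRFS1, the Rieske iron-sulfur protein through which electrons leave for cytochrome c, had 79.6 ± 14.6 FPKM. The membrane anchors of complex II, SDHD (100.5 ± 11.1 FPKM) and SDHC (95.6 ± 17.5 FPKM), were above SDHA, the flavoprotein that oxidizes succinate (68.4 ± 14.9 FPKM), and SDHB, the iron-sulfur subunit (54.5 ± 11.8 FPKM), and within each of these pairs the means differed by less than the larger SD.

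**Figure D1:**
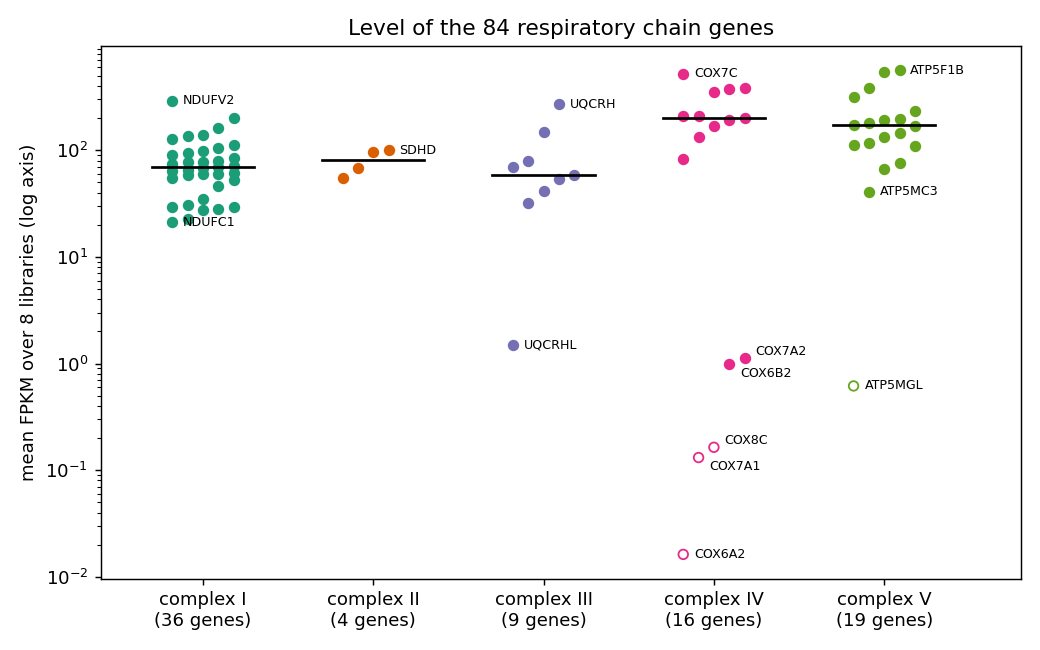
Mean FPKM over 8 libraries (log axis) of each respiratory chain gene, 1 point per gene, by complex, with open points for the 4 genes below the count filter and a line at the median of the others. Most points lie between 20 and 600 FPKM, and the muscle, testis and copy genes COX6A2, COX7A1, COX8C, COX6B2, UQCRHL and ATP5MGL lie far below, as does COX7A2.

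Several complex IV subunits have a widely used form and a tissue form, and LP-1 cells used the former. COX6A1 had 193 FPKM, whereas the muscle form COX6A2 had a count of 0 in 7 libraries, each of which allows up to 3 counts, and 1 count in the BR SI-2 replicate 1 library. COX8A stood at 378 FPKM beside 0 to 3 counts per library for COX8C. COX6B1 had 211 FPKM and the testis form COX6B2 0.98 FPKM. Of the COX7A pair, the muscle form COX7A1 had 0.131 FPKM. Its usual counterpart COX7A2 was also low, with 1.11 FPKM and 8 to 34 counts a library, most of them given to a predicted transcript (at least 58.6% in each library). The gene is abundant in most tissues, and whether its low value here depends on the transcripts used for counting was not tested, so values of COX7A2 are uncertain. COX7A2L, the related factor that joins complexes III and IV in supercomplexes, had 201 FPKM. The 3 genes ATP5MC1, ATP5MC2 and ATP5MC3, which encode the same mature c-ring protein, stood at 116, 539.7 and 41 FPKM. Near-copies share reads with their parents, so values of UQCRH and UQCRHL (1.5 FPKM), of ATP5MG and ATP5MGL (0.616 FPKM), and of ATP5MF and NDUFC2 beside their read-through genes are uncertain. The same holds for SDHA, which has near-identical pseudogenes. The read-through gene of ATP5MF had 34 to 376 counts and that of NDUFC2 0 to 17.

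The first question was whether respiratory chain genes differed between the resistant and the parental line. In bulk RNA, fewer cells of one kind and less RNA per cell cannot be told apart. With all 4 BR libraries against all 4 WT libraries, edgeR's quasi-likelihood test called 0 of the 80 members at an adjusted p under 0.05, where it called 0.362% of all genes, and DESeq2 and limma also called 0. At an unadjusted p under 0.05 there were 9 members (11.2%), against 14.4% of all genes. The 7 that were higher compare with 6.29% of all genes, and the 2 that were lower with 8.08%. The median log2 fold change over the members was 0.08, and 54 of 80 (67.5%) were above 0 against 50.9% of all genes. Without the WT SI-2 replicate 2 library the median was 0.049. The smallest adjusted p were those of NDUFS7, a quinone-site subunit of complex I, with 0.28 ± 0.10 (SE; adjusted p = 0.267), SDHA with 0.33 ± 0.12 (SE; adjusted p = 0.267) and ATP5MC1 with 0.42 ± 0.15 (SE; adjusted p = 0.268). NDUFV3, an accessory subunit of the NADH-oxidizing module, had -0.33 ± 0.13 (SE; adjusted p = 0.298), NDUFB1 -0.26 ± 0.11 (SE; adjusted p = 0.328) and COX7A2L -0.43 ± 0.23 (SE; adjusted p = 0.417). In NDUFS7, NDUFS6, NDUFB6 and ATP5F1B all BR libraries were above all WT libraries (4 members; 3.78% of all genes), and in ATP5PB and ATP5F1A all were below (2 members; 4.36%).

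Within single treatments the counts were also 0. BR against WT with vehicle gave 0 called members (0.0% of all genes) and 0 at an unadjusted p under 0.05 (3.89% of all genes), with a median of 0.09. With SI-2 it likewise gave 0 called members (0.0072% of all genes) and 0 at an unadjusted p under 0.05 (4.09% of all genes), with a median of 0.07. DESeq2 and limma called 0 members in both. In each of these comparisons 53 of 80 members were above 0, against 50.1% of all genes with vehicle and 51.5% with SI-2. The 2 comparisons share no libraries, but they are not independent. Differences of replicate 2 from replicate 1 correlated between the treatments of a line (r = 0.44 in WT and 0.37 in BR cells). Both medians turned negative when 1 library was left out, to -0.0065 with vehicle without WT vehicle replicate 2 (23 of 80 members changed sign) and to -0.022 with SI-2 without WT SI-2 replicate 2 (29 of 80).

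Library by library, the members were lowest in the 2 WT replicate 2 libraries. In both WT replicate 2 libraries the median deviation from each member's own mean (log2 CPM) was -0.15 with vehicle and -0.11 with SI-2. It was 0.06 to 0.09 in the 4 replicate 1 libraries and 0.03 in both BR replicate 2 libraries. By complex, the median deviation in the WT replicate 2 libraries was -0.23 and -0.25 in complex II, -0.21 and -0.16 in complex IV and -0.17 and -0.12 in complex I, -0.01 and -0.04 in complex III and -0.04 and -0.06 in complex V. These medians are over 4 to 36 genes, and the differences between complexes were not tested. Members took 0.913 and 0.907% of the counts there and 1.02 to 1.07% elsewhere. For 37 of the 80 members (46.2%) both WT replicate 2 libraries were below the other 6, against 15.4% of all genes tested, and for 8 (10.0%) both were above, against 14.4% of all genes. Without these 2 libraries, a choice made after seeing the data, the median of the members between BR and WT cells was -0.01, 38 of 80 were above 0 (52.0% of all genes), and edgeR called 0 members (0.0888% of all genes), with 0 at an unadjusted p under 0.05 (6.94% of all genes).

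**Figure D2:**
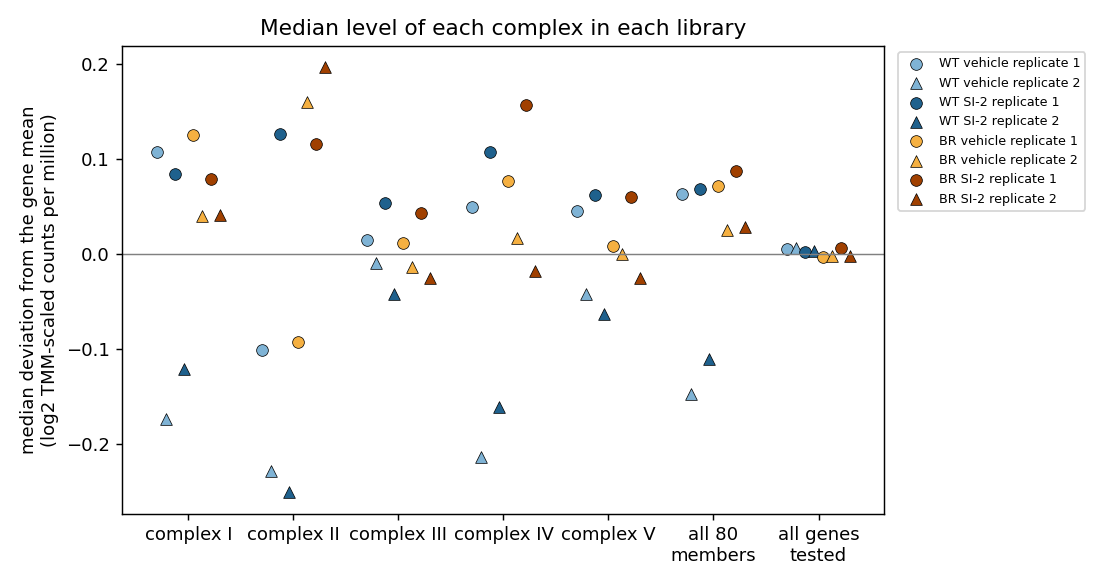
Median deviation of the tested members of each complex, of all 80 members and of all genes tested from each gene's own mean over 8 libraries (log2 CPM), 1 point per library, with circles for replicate 1 and triangles for replicate 2. Over all 80 members the 2 WT replicate 2 libraries lie at -0.15 (vehicle) and -0.11 (SI-2), and the other 6 lie above 0.

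BR and WT cells were therefore compared within each replicate number, in 1 fit with line, number and their combination, on 13520 genes. This was chosen after seeing the data, and the vehicle and SI-2 libraries of a line serve as its 2 libraries within a number. The p-values therefore measure the spread between those 2 libraries and not the spread between replicate numbers. The coefficient of variation between libraries that edgeR estimated was 0.107 in this fit, against 0.159 to 0.179 in the others. Below, CPM are scaled by TMM, a trimmed mean across libraries, and each pair of values gives the vehicle and then the SI-2 library. A gene that rose or fell was higher or lower in BR than in WT libraries of the same number. These words do not say which line departed from the replicate 1 libraries. In the replicate 1 libraries, 0 of 80 members were called by edgeR (0.399% of all genes), 6 had an unadjusted p under 0.05 (13.1% of all genes), DESeq2 and limma called 0, and the median was 0.02, which turned to -0.02 with upper-quartile scaling and to -0.0038 with scaling by library size only. In the replicate 2 libraries, 33 of 80 members (41.2%) were called, against 20.5% of all genes. The median standard error there was 0.099 over members and 0.143 over all genes. Here and below, all genes were not matched to the members for expression level, and what this adds to the shares was not tested. An unadjusted p under 0.05 was reached by 40 (35.0% of all genes). Of the 33, 26 were higher in BR cells (9.41% of all genes) and 7 lower (11.1% of all genes), and the median was 0.16, or 0.16 and 0.24 with those 2 scalings. DESeq2 called 35 members (22.8% of all genes with an adjusted p) and limma 37 (20.9% of all genes). Fewer members were called when any 1 of the 4 replicate 2 libraries was left out. Without WT vehicle replicate 2 the calls over all genes fell as well. The median over members ran from 0.15 to 0.17 when 1 library was left out. It was 0.17 without BR SI-2 replicate 2, which held the fibroblast genes. In these fits the remaining library of a line and number is assumed to vary like the others. A fit on the 4 replicate 2 libraries alone called 53 members, and 6251 of all genes.

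**Figure D3:**
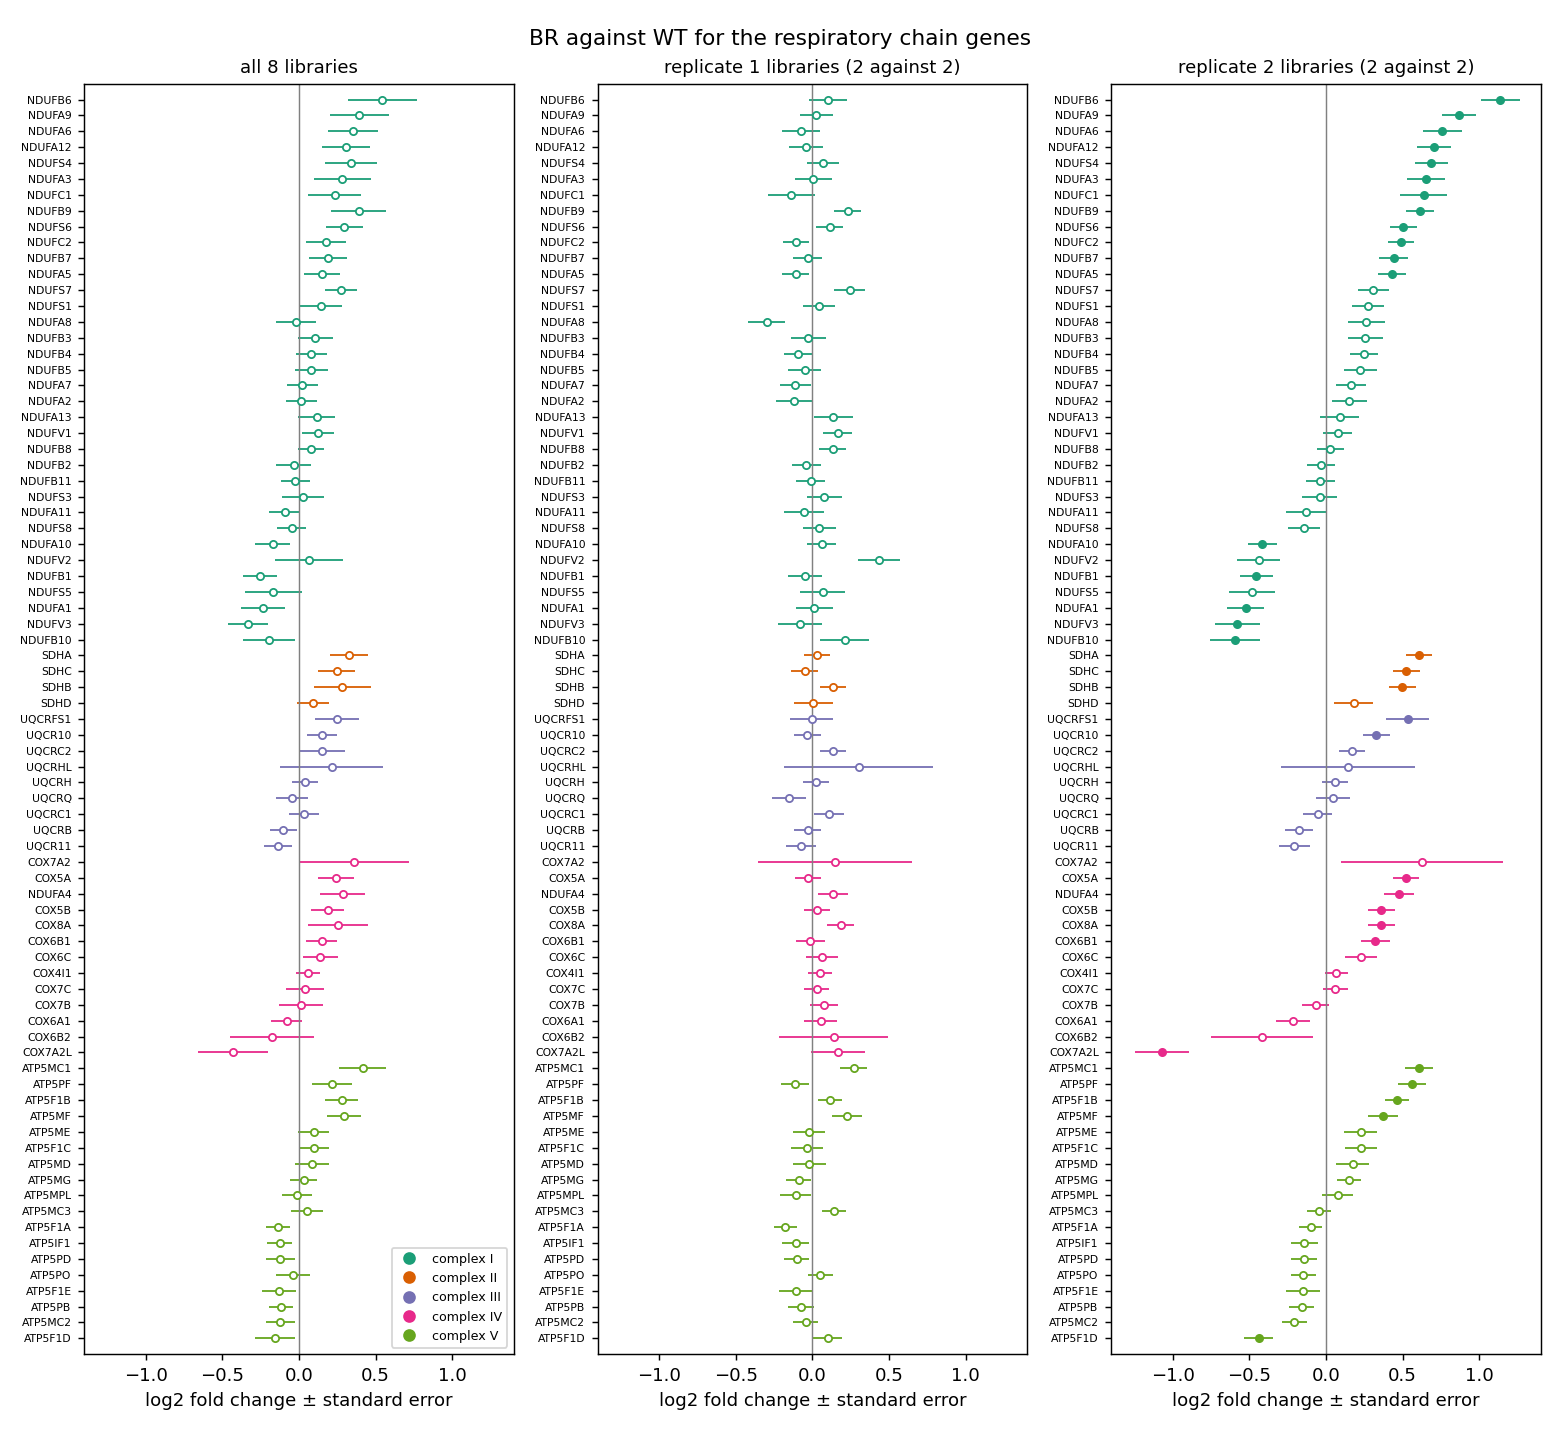
Log2 fold change of BR against WT cells for the tested members other than 1 not shown, 1 point per gene with its standard error as the bar and complexes in different colours, over all 8 libraries, the 4 replicate 1 libraries and the 4 replicate 2 libraries. Filled points passed an adjusted p of 0.05 and open points did not, with 0, 0 and 33 filled points in the 3 panels.

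Complex I held 17 of the 33 called members, 47.2% of its genes against 20.5% of all genes. All 17 were among the 29 accessory subunits (12 of them higher in BR cells, 5 lower). Of the 7 core subunits 0 passed, with a smallest adjusted p of 0.0549. An unadjusted p under 0.05 was reached by 3 core and 20 accessory subunits, against 35.0% of all genes. With 7 core genes the counts are small, and the difference between core and accessory subunits was not tested. NDUFB6, an accessory subunit of the membrane arm, changed most: it had 14.2 and 18.5 CPM in the replicate 2 libraries of WT cells, 35.2 and 36.5 CPM in those of BR cells, and 31.2 and 32.0 (WT) and 33.6 and 34.3 (BR) CPM in the replicate 1 libraries. Only the WT replicate 2 libraries stood apart, and the replicate 2 difference was 1.14 ± 0.13 (SE; adjusted p = 0.00176). NDUFA9, which lies where the quinone-reducing part meets the membrane, had 27.8 and 31.0 CPM in the replicate 2 libraries of WT cells, 56.1 and 51.4 CPM in those of BR cells, and 48.2 and 54.0 (WT) and 49.4 and 54.5 (BR) CPM in the replicate 1 libraries. Here too only the WT replicate 2 libraries stood apart, and the replicate 2 difference was 0.87 ± 0.11 (SE; adjusted p = 0.00243). NDUFA6 and NDUFB9, small LYR-motif subunits, rose by 0.76 ± 0.12 (SE; adjusted p = 0.0054) and 0.61 ± 0.09 (SE; adjusted p = 0.00359). NDUFA12 (0.71), NDUFS4 (0.69) and NDUFS6 (0.51), which take part late in the assembly of the NADH-oxidizing module, also rose, with adjusted p of 0.0045, 0.00465 and 0.00662. The other higher accessory members were NDUFA3 (0.65), NDUFC1 (0.64), NDUFC2 (0.49), NDUFB7 (0.44) and NDUFA5 (0.43).

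A smaller set of accessory subunits fell. NDUFV3 had 63.5 and 55.9 CPM in the replicate 2 libraries of WT cells, 42.5 and 37.5 CPM in those of BR cells, and 53.9 and 45.9 (WT) and 53.0 and 41.3 (BR) CPM in the replicate 1 libraries, so that the WT replicate 2 libraries were the highest. Its difference in the replicate 2 libraries was -0.58 ± 0.15 (SE; adjusted p = 0.0263). NDUFB10 (-0.59), NDUFA1 (-0.52), NDUFB1 (-0.46) and NDUFA10 (-0.42), all of the membrane arm, were the other 4 lower members, with adjusted p of 0.018 to 0.0347. Among the core subunits, NDUFS7 was near the same difference in both numbers, 0.24 ± 0.10 in replicate 1 (adjusted p = 0.356) and 0.31 ± 0.10 in replicate 2 (adjusted p = 0.0645). NDUFV2 had opposite signs, 0.43 ± 0.14 (SE; adjusted p = 0.244) and -0.44 ± 0.14 (SE; adjusted p = 0.0549). Its values were 291 and 230.2 CPM in WT and 389.6 and 314 CPM in BR cells in the replicate 1 libraries and 267 and 243 CPM in WT and 188 and 188 CPM in BR cells in the replicate 2 libraries.

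In complex II, 3 of 4 genes (75.0%) were called in the replicate 2 libraries, against 20.5% of all genes. All 3 were higher in BR cells, against 9.41% of all genes. SDHA had 170.2 and 171 CPM in the replicate 2 libraries of WT cells, 259.9 and 259.5 CPM in those of BR cells, and 191 and 203 (WT) and 189.5 and 213 (BR) CPM in the replicate 1 libraries. The replicate 2 WT and BR libraries lay on either side of the replicate 1 libraries, and the difference was 0.61 ± 0.09 (SE; adjusted p = 0.00344). SDHC and SDHB rose by 0.53 ± 0.09 (SE; adjusted p = 0.00585) and 0.50 ± 0.09 (SE; adjusted p = 0.00685), and SDHD had 0.18 ± 0.13 (SE; adjusted p = 0.348). In the replicate 1 libraries the 4 values ran from -0.05 to 0.13.

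Complex III had 2 of 9 members called in the replicate 2 libraries (22.2%, near the 20.5% of all genes), UQCRFS1 with 0.53 ± 0.14 (SE; adjusted p = 0.0297) and UQCR10, a small subunit, with 0.33 ± 0.09 (SE; adjusted p = 0.0352). UQCRC2 had 0.17 ± 0.08 (SE; adjusted p = 0.196), and its CPM differed by replicate number in both lines: 356 and 367 against 265 and 267 in WT cells and 372 and 421 against 303 and 294 in BR cells, for replicates 1 and 2.

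In complex IV, 5 of 13 tested members rose and 1 fell (46.2% called, against 20.5% of all genes). COX5A and COX5B, nuclear-encoded subunits on the matrix side, rose by 0.52 ± 0.08 (SE; adjusted p = 0.00522) and 0.36 ± 0.09 (SE; adjusted p = 0.0199). NDUFA4 (0.47), COX8A (0.36) and COX6B1 (0.32) were the others, with adjusted p of 0.0126, 0.0222 and 0.044. COX8A had 121 and 133 CPM in WT and 163 and 163 CPM in BR cells in the replicate 2 libraries, all 4 below the replicate 1 libraries, which had 210.1 and 197 CPM in WT and 237 and 225 CPM in BR cells. COX7A2L fell by 1.07 on the log2 scale (SE 0.18; adjusted p = 0.00566), the largest difference downward. It had 317 and 299 CPM in the replicate 2 libraries of WT cells, 154 and 139.7 CPM in those of BR cells, and 245 and 183 (WT) and 280.0 and 200.5 (BR) CPM in the replicate 1 libraries, so the WT replicate 2 libraries were the highest and the BR replicate 2 libraries the lowest.

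Complex V had 4 of 18 tested members higher and 1 lower (27.8% called, against 20.5% of all genes). ATP5MC1 rose by 0.61 ± 0.09 (SE; adjusted p = 0.00396), whereas ATP5MC2 and ATP5MC3, for the same protein, had -0.21 ± 0.08 (SE; adjusted p = 0.111) and -0.05 ± 0.08 (SE; adjusted p = 0.706). ATP5PF, coupling factor 6 of the stalk, had 0.56 ± 0.09 (SE; adjusted p = 0.00505), ATP5F1B 0.47 ± 0.08 (SE; adjusted p = 0.00595) and ATP5MF 0.37 ± 0.10 (SE; adjusted p = 0.0315). ATP5F1D, the delta subunit of the catalytic head, had -0.44 ± 0.10 (SE; adjusted p = 0.0159). ATP5IF1, the protein that inhibits the enzyme when it runs in reverse, had -0.14 ± 0.09 (SE; adjusted p = 0.285).

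**Figure D4:**
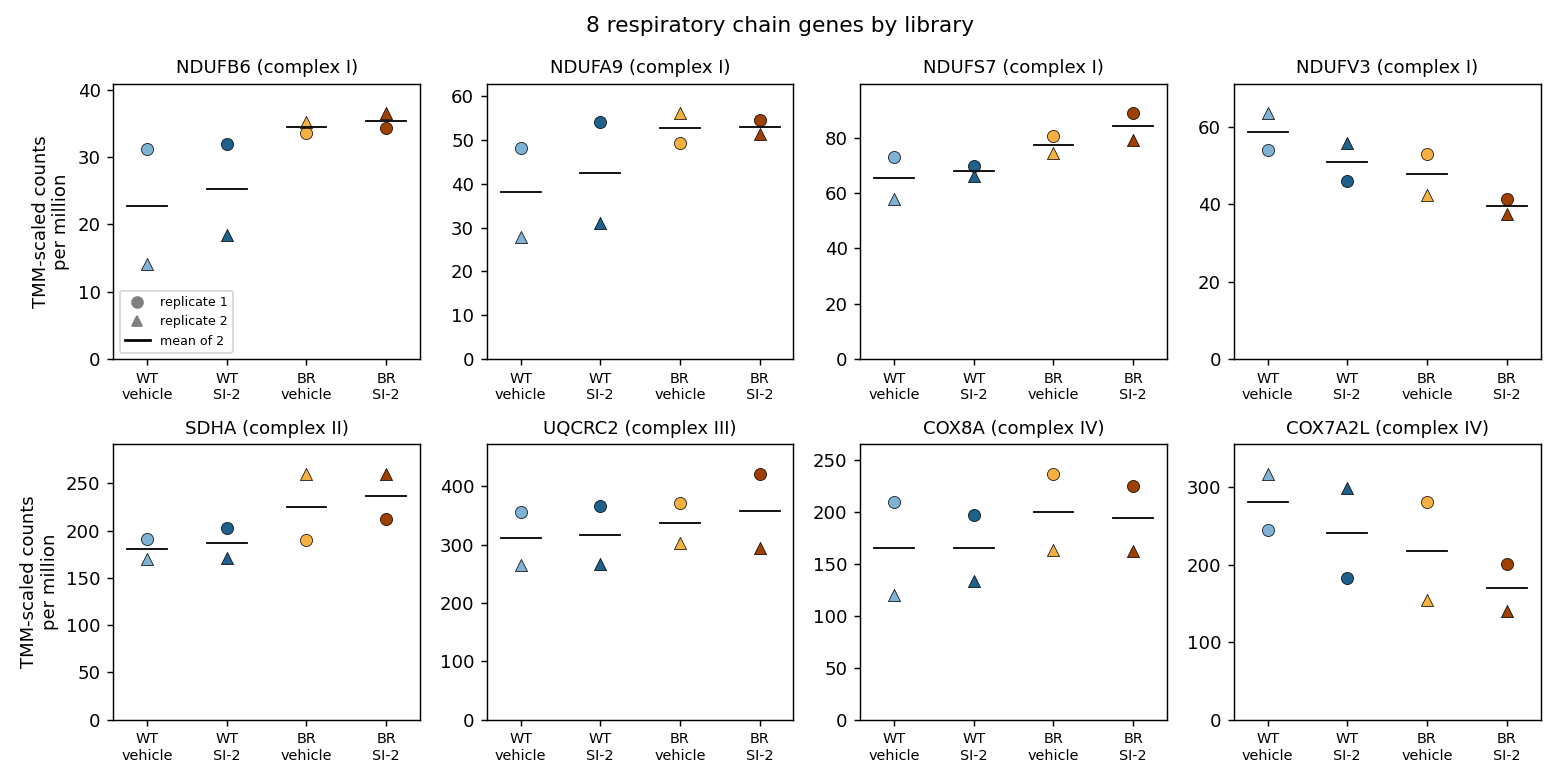
CPM by library of 8 members (NDUFB6, NDUFA9, NDUFS7, NDUFV3, SDHA, UQCRC2, COX8A and COX7A2L), each point 1 library (circle, replicate 1, triangle, replicate 2) and each line the mean of 2, on axes that start at 0. In NDUFB6 and NDUFA9 the 2 WT replicate 2 libraries are the lowest, in COX7A2L they are the highest, and in COX8A and UQCRC2 both lines are lower in replicate 2.

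The difference between the numbers was tested directly. The BR-WT difference in the replicate 2 libraries minus that in the replicate 1 libraries passed for 13 of 80 members (16.2%), against 6.91% of all genes. An unadjusted p under 0.05 was reached by 35 (25.8% of all genes). It was positive for 11 (2.99% of all genes), NDUFB6, NDUFA9, NDUFA6, NDUFA12, ATP5PF, NDUFS4, NDUFC2, SDHA, SDHC, COX5A and NDUFA5, with 0.54 to 1.04 and adjusted p of 0.0218 to 0.0473. It was negative for NDUFV2 (-0.87; adjusted p = 0.0371) and COX7A2L (-1.24; adjusted p = 0.0301), 3.92% of all genes. These calls were lost without any 1 of the 4 replicate 2 libraries, and most were lost without WT SI-2 replicate 1. Without WT vehicle replicate 2 the calls over all genes were lost too. The median over members was 0.17 and ran from 0.088 to 0.20 when 1 library was left out. DESeq2 called 16 members (13.3% of all genes with an adjusted p) and limma 23 (7.77% of all genes). Among the members with a promoter entry, at least 1 of the 3 motifs was in 14 of 21 that rose in the replicate 2 libraries, 1 of 6 that fell and 22 of 40 that were tested and not called.

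SI-2 against vehicle was the second question, in each line and in both together. All 3 comparisons called 0 members (0.0% of all genes), as did DESeq2 and limma. No member reached an unadjusted p under 0.05 in any of them (0 of 80), where 1.2% of all genes did in BR cells, 0.533% in WT cells and 2.22% over both lines. The medians were 0.01 in BR cells, 0.02 in WT cells and 0.02 over both lines, and each took both signs when 1 library was left out. Over both lines, no member had all SI-2 libraries above all vehicle libraries (0.666% of all genes) or all below (0.777%). The smallest p were those of SDHD (0.17 ± 0.10; 95% interval -0.05 to 0.39), NDUFV3 (-0.24 ± 0.15; -0.57 to 0.10) and UQCRFS1 (0.22 ± 0.15; -0.11 to 0.55), with adjusted p of 0.999 in all 3. In BR cells, COX6A1 had 0.22 ± 0.15, COX7A2 0.61 ± 0.52, NDUFA2 0.16 ± 0.16, NDUFV3 -0.28 ± 0.18, NDUFA11 -0.21 ± 0.16 and COX7A2L -0.35 ± 0.33. In WT cells, UQCRHL had 0.73 ± 0.52, SDHD 0.21 ± 0.16, UQCRFS1 0.23 ± 0.21, NDUFB10 -0.31 ± 0.25, NDUFS5 -0.32 ± 0.27 and NDUFV3 -0.21 ± 0.18. The SI-2 effect in BR minus that in WT cells also gave 0 called members (0.0% of all genes) and 0 at an unadjusted p under 0.05 (0.533% of all genes), with a median of -0.002, and DESeq2 and limma called 0. The SI-2 tests above left replicate number out, although libraries of the same line and number were alike. A model with both line and replicate number was chosen after seeing the data. In it 9 members (11.2%) had an unadjusted p under 0.05 for SI-2, against 13.9% of all genes. It called 0 members (0.0% of all genes).

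The 4 replicate 2 libraries were also compared with the 4 replicate 1 libraries, as a check on the measurement. Of the 80 members, 0 were called by edgeR (0.925% of all genes) and 0 by limma, and DESeq2 called 7 (5.94% of all genes with an adjusted p), all lower in replicate 2, among them COX7B, COX7C, COX8A, NDUFS3, SDHB and UQCRC2. At an unadjusted p under 0.05 there were 16, against 16.9% of all genes, 15 of them lower (8.28% of all genes) and 1 higher (8.63%). The median was -0.13, 58 of 80 were below 0 and 22 above (49.0% of all genes), and in 15 members all replicate 2 libraries were below all replicate 1 libraries (6.08% of all genes). COX8A had -0.58 ± 0.12 (SE; adjusted p = 0.0538), COX7B -0.38 ± 0.08 (SE; adjusted p = 0.0558) and UQCRC2 -0.42 ± 0.09 (SE; adjusted p = 0.0617). NDUFB2 had 0.25 ± 0.08 (SE; adjusted p = 0.155), the one member whose replicate 2 libraries were all above (5.91% of all genes). ATP5MD (0.20) and UQCRQ (0.15) had adjusted p of 0.314 and 0.462.

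Other mitochondrial genes were read from lists in the same fit. In the replicate 2 libraries, 20.5% of all genes were called, 9.41% higher and 11.1% lower in BR cells. Of 78 mitochondrial ribosomal protein genes, 31 were called between BR and WT cells, 23 higher and 8 lower, with a median of 0.17. For the respiratory chain members the median was 0.16, and for all genes tested -0.0037. Of 48 assembly factors of the respiratory chain 7 were called (4 higher), of 18 citric acid cycle genes 4 (3 higher), of 27 import genes 10 (4 higher), and of 23 regulators 2. Of these regulators, TFAM, which packages mitochondrial DNA, rose from 39.4 and 39.5 FPKM in WT to 51.7 and 54.3 FPKM in BR cells, with 0.36 ± 0.09 (SE; adjusted p = 0.026). ESRRA, a nuclear receptor that acts on respiratory chain genes, fell from 41.6 and 45.6 to 17.6 and 21.1 FPKM (vehicle and SI-2 libraries in each case). Its difference was -1.25 ± 0.15 (SE; adjusted p = 0.00186). In the replicate 1 libraries ESRRA had the opposite sign, 0.40 ± 0.14 (SE; adjusted p = 0.292), and TFAM had -0.05 ± 0.09 (SE; adjusted p = 0.86). The difference between the numbers was -1.65 ± 0.21 for ESRRA (SE; adjusted p = 0.0111) and 0.40 ± 0.13 for TFAM (SE; adjusted p = 0.0884). Of the 4 chain genes outside the naming rule, CYC1, the cytochrome c1 of complex III, rose by 0.60 ± 0.09 (SE; adjusted p = 0.00355). NDUFAB1, the acyl carrier protein held by the LYR-motif subunits, rose by 0.63 ± 0.10 (SE; adjusted p = 0.00397). NDUFA4L2 had -1.19 ± 0.26 (SE; adjusted p = 0.0158) and CYCS, cytochrome c, 0.20 ± 0.10 (SE; adjusted p = 0.173). In the replicate 1 libraries CYC1 had 0.13, NDUFAB1 -0.14 and NDUFA4L2 -0.39, with adjusted p of 0.564 to 0.585. CYCS had -0.08 there (adjusted p = 0.781). The difference between the numbers was 0.77 ± 0.13 for NDUFAB1 (SE; adjusted p = 0.0221). It was 0.47 for CYC1, -0.80 for NDUFA4L2 and 0.28 for CYCS, with adjusted p of 0.0551, 0.227 and 0.238. Cytosolic ribosomal protein genes had 37 of 83 called, 2 of them higher, and a median of -0.25. In the replicate 1 libraries the counts for these lists were 0 mitochondrial ribosomal, 0 assembly, 1 citric acid cycle, 0 import, 0 regulator, 0 cytosolic ribosomal and 0 other chain genes. Of all genes, 0.399% were called in these libraries. The cytosolic ribosomal genes nevertheless had a median of -0.16 there, with 4 of 83 above 0 and 29 lower at an unadjusted p under 0.05. Of all 13520 genes, 6884 were above 0, and 13.1% had an unadjusted p under 0.05 in either direction.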

How the data were processed

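RNA of 8 LP-1 libraries, 2 for each of 4 conditions, was sequenced on the BGISEQ-500. The submitters' processing notes name BWA, Bowtie2, RSEM and the hg19 build, with no versions or roles. The authors deposited estimated counts per gene and per transcript, which need not be whole because shared reads were divided, and FPKM per gene, which the authors scaled by length and depth. Deposited columns of condition means and of the authors' own comparisons (fold changes, p-values) were not used. Groups and replicate numbers came from the sample labels.

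Estimated counts were rounded, filtered with filterByExpr, scaled by TMM (factors 0.971 to 1.058) and tested with edgeR 4.0.16 (quasi-likelihood, R 4.3.3) with Benjamini-Hochberg adjustment over all genes tested: 13896 in the fit of 4 conditions, and 13520 in the fits of 4 against 4 libraries and of line within replicate number. Called means an adjusted p under 0.05. All 80 tested members entered both. Standard errors come from the fold change and its F statistic. CPM are scaled by TMM, and FPKM are means over 8 libraries. The main form of each edgeR fit was tested on simulated counts with the same spread for all genes. The SI-2 model with line and replicate number, the fits with libraries left out and those on the compared libraries alone were not. DESeq2 1.42.0 and limma 3.58.1, on log2(FPKM + 1) and log2(FPKM + 0.1), were alternatives, beside other scalings and filters, removal of a trend with gene length, the replicate number as a block and the omission of each library. Library totals of 17997771 to 18570027 leave counting error small beside the spread between libraries for all but the rarest members, and intervals cover counting error only where they are given for counts.

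Members and lists were chosen with earlier results of these data known. Named genes are the 3 highest of each complex, tissue forms, all SDH genes, core complex I genes, the members of smallest p in each direction and comparison, those past the threshold and those below the filter. The values of 1 such gene are counted in the summaries and not reported here by name. Promoter entries (RefSeq, GRCh38.p14) were matched by gene identifier, the first entry of each gene being used.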

Additional observations from a re-analysis of the deposited data

Results flagged for a closer look

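Each of 38 groups of 4 libraries was checked for a library far from the other 3 in the TMM-scaled CPM of a named member, by Dixon's ratio of the gap to the range at 95%. About 1 in 20 such groups is picked out by chance. Among the SI-2 libraries, UQCRFS1 stood at 79.7 CPM in WT replicate 2 against 109.7 to 111.9 CPM in the others (gap 0.931 of the range). Among the replicate 2 libraries, UQCRQ, a small subunit of complex III, stood at 71.9 CPM in BR SI-2 against 66.7 to 67.3 CPM in the others (gap 0.878 of the range). This library also held fibroblast genes, and a link between them and the UQCRQ value was not tested.

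The difference of BR from WT cells was not the same in the replicate 1 and replicate 2 libraries for 13 members, by a test of the difference itself (replicate 2 minus replicate 1, edgeR, adjusted over 13520 genes). In complex I it was 1.04 for NDUFB6, 0.85 for NDUFA9, 0.84 for NDUFA6, 0.75 for NDUFA12, 0.62 for NDUFS4, 0.60 for NDUFC2, 0.54 for NDUFA5 and -0.87 for NDUFV2. In complex II it was 0.58 for both SDHA and SDHC. In complex IV it was 0.55 for COX5A and -1.24 for COX7A2L, and in complex V 0.68 for ATP5PF. Adjusted p ran from 0.0218 to 0.0473. The comparison was not among those planned and was chosen once the library values were known, the labels do not say what a replicate number marks, and the cause was not tested.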

How the results depend on the processing

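The 33 calls of BR against WT cells in the replicate 2 libraries, and the 13 of the difference between replicate numbers, rest on 2 libraries a side and were made after the data had been seen. Leaving out 1 library gave 3 to 37 and 0 to 19 called members, and 381 to 3680 and 0 to 2020 genes. With the compared libraries alone, 53 members and 6251 genes were called in replicate 2, and 0 genes in replicate 1. DESeq2 called 187 genes in replicate 1 and 1416 for the difference, limma called 23 members for the difference with either pseudocount, and scaling by library size only raised its median over members to 0.28 and shifted that of all genes by 0.10. In replicate 1, leaving out 1 library gave 1 to 71 genes.

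Elsewhere 0 members were called, except for 1 member (ATP5MC1) in BR against WT over both treatments with the length trend removed and a replicate block (151 genes), and 7 by DESeq2 in replicate 2 against 1. For genes of all kinds, BR against WT over both treatments gave 155 with the replicate block, 399 with DESeq2, 19 with condition terms, 12 without the WT replicate 2 libraries and 21 to 129 when 1 library was left out. Replicate 2 against 1 gave 196 with upper-quartile scaling, 740 with DESeq2, 62 and 56 with limma, 0 with condition terms and 0 to 106 without 1 library. BR against WT with vehicle gave 1 with upper-quartile scaling, a CPM filter, the block, the block with the length trend, the libraries compared alone and limma at pseudocount 1, 3 with no filter, 4 with limma at 0.1 and 28 with DESeq2. With SI-2 it gave 34 with DESeq2, 0 with limma, 2 with the libraries compared alone and 0 to 6 without 1 library. DESeq2 called 1 gene for SI-2 in BR cells, 1 in WT cells and 1 for their difference, and leaving out 1 library gave 0 to 7 for SI-2 in BR cells.

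Without 1 library, the median over members ran from -0.0065 to 0.15 for BR against WT with vehicle, -0.022 to 0.17 with SI-2 and 0.049 to 0.11 over both treatments. For SI-2 it ran from -0.089 to 0.13 in WT cells, -0.045 to 0.044 in BR cells, -0.032 to 0.076 over both lines and -0.10 to 0.11 for the effect in BR minus WT cells. In replicate 1 the BR-WT median was -0.0008 without BR SI-2 replicate 1. The largest number of the 80 members that changed sign was 43 for SI-2 in BR cells (without BR vehicle replicate 1), 42 in WT cells (without WT SI-2 replicate 1), 29 for BR against WT with SI-2 and 23 with vehicle, 21 in replicate 1 (without WT SI-2 replicate 1) and 3 in replicate 2 (without BR SI-2 replicate 2). Of the values given for named members, 4 changed sign: COX7A2L (SI-2 in BR cells) ran from -0.72 to 0.14, being positive without BR vehicle replicate 1, UQCRFS1 (SI-2 in WT cells) from -0.014 to 0.44, negative without WT SI-2 replicate 1, and, for the difference of SI-2 effects, NDUFB10 from -0.084 to 0.56, negative without WT SI-2 replicate 1, and NDUFA1 from -0.0083 to 0.58, negative without BR vehicle replicate 2. The cause of these changes was not tested. The replicate numbers were not shown to pair the libraries across lines. With 2 numbers, deviations of same-numbered libraries correlated with r of 0.44 between the WT conditions and 0.37 between the BR conditions. Between a WT and a BR condition r ran from -0.12 to 0.20. The replicate block, which spans both lines, is therefore given only here.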
